A study of Homo sapiens with 2 samples.

Results

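Genes that build and run the DNA replication machinery were compared between A549 cells carrying the LV5 control vector (A549-LV5) and A549 cells overexpressing the zinc finger gene ZNF300 (A549-ZNF300). The 52 genes were taken as a list of known replication factors, by their roles: 15 act in origin licensing, 8 in initiation and 29 in elongation at the fork. Earlier results of these data were known when the list was chosen, so it was not chosen blind to the signals. All 52 had a detected probe set, out of 13221 detected genes on the array. A549 is an established line of human lung adenocarcinoma, and LV5 is a lentiviral vector. Total RNA of each condition was hybridised to 1 Affymetrix Human U133 Plus 2.0 array, so there were 2 arrays in all and no replicate check of any difference. The overexpressed form was the full-length transcript, carried by the same vector as the control, and both conditions therefore shared the lentiviral infection. Whether the cells were a clone or a pool, and how long after infection RNA was taken, is not given in the sources used here.

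Before a cell copies its DNA, the origin recognition complex (ORC), CDC6 and CDT1 load the ring-shaped MCM helicase onto origins, a step called licensing. In S phase the kinase made of CDC7 and DBF4, together with cyclin-dependent kinase, turns the loaded helicase into an active one by joining CDC45 and the GINS complex to it, and polymerases, the sliding clamp PCNA and its loaders then extend the new strands. Many of these genes are transcribed in late G1 and S phase under control of E2F factors, so their RNA is commonly read as a sign of how many cells of a culture are cycling.

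Values are log2 signals of the arrays as deposited, and a log2 ratio is always the A549-ZNF300 signal minus the A549-LV5 signal, so that a ratio of 1 is a 2-fold difference. Where a gene has several detected probe sets, the brightest by mean signal stands for it. Levels of different genes are not compared, because probes differ in brightness. ZNF300 itself had a signal of 4.16 in A549-LV5, below that array's median of 6.14, and 8.91 in A549-ZNF300, above its median of 6.03. The difference of 4.75 followed the labels of the arrays. For scale, the log2 ratios of probe sets of the same gene had a median SD of 0.35 over the 6607 genes with at least 2 detected probe sets, which is a spread between probes and not between cultures.

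The promoters of 6 genes are shown here because they span the range of ratios described in the next paragraphs: CDC6, RFC3 and MCM10, which were at least 4-fold higher in A549-ZNF300, MCM6 and PCNA, which were higher by about the median of the list, and ORC4, which had the lowest ratio. Each is the RefSeq sequence of 300 bases, 250 before the transcription start and 50 from the start on, in build GRCh38.p14 and read 5′ to 3′ on the strand of the gene. Capitals mark exact matches, on either strand, to the E2F forms named after the sequences. CDC6 lies at chr17:40287629-40287928 on the plus strand, RFC3 at chr13:33817899-33818198 on the plus strand, MCM10 at chr10:13161308-13161607 on the plus strand, MCM6 at chr2:135876394-135876693 on the minus strand, PCNA at chr20:5126573-5126872 on the minus strand and ORC4 at chr2:148021502-148021801 on the minus strand. PCNA and ORC4 have more than 1 start in the table, and the first listed is shown.
CDC6: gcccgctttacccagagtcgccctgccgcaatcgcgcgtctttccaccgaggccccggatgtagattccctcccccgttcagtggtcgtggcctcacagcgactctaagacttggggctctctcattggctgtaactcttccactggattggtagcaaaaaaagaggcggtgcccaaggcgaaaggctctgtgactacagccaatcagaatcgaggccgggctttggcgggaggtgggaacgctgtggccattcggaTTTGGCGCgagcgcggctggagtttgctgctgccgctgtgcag
RFC3: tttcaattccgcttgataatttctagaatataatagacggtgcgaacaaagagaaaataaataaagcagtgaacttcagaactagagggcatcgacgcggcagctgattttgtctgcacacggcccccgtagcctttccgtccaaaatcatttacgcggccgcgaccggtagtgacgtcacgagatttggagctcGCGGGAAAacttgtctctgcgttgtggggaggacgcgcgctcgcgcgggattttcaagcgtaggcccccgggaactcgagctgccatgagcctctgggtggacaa
MCM10: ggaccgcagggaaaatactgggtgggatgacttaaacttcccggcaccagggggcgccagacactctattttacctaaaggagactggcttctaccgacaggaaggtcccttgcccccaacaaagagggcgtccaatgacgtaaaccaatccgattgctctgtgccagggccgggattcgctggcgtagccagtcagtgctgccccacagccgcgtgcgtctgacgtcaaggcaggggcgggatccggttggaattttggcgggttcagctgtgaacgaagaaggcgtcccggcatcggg
MCM6: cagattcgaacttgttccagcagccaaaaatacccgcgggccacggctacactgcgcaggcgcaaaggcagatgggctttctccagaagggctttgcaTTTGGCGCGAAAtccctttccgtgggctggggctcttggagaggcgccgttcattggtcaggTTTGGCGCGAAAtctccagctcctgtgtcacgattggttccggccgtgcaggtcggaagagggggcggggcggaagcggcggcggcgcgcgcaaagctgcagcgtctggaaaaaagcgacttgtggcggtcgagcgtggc
PCNA: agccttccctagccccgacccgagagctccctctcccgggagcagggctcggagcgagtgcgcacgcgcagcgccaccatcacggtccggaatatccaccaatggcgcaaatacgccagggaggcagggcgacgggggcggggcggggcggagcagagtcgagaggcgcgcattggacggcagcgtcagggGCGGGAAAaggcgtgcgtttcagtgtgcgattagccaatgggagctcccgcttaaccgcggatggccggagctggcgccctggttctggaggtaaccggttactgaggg
ORC4: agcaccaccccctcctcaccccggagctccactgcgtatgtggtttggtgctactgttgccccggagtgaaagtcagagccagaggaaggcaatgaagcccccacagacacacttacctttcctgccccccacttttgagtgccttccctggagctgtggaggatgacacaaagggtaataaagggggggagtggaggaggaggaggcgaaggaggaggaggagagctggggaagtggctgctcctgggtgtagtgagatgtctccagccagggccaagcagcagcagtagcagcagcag

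The motifs searched were the E2F forms TTTCCCGC, TTTGGCGC, TTTCGCGC and TTTGCCGC, the CCAAT box (CCAAT) and the cell cycle homology region (TTTGAA), each on both strands and with overlapping matches counted. Promoters were in the table for 45 of the 52 genes, and those of DSCC1, GINS4, MCM4, MCM5, POLD3, RPA2 and RPA3 were not analysed here. An E2F form occurred in 18 of the 45 promoters, or 40.0%, against 3.33% of all 27305 promoters and 5.16% of the 10679 promoters of detected genes. Of the 24 matches in these promoters, 18 lay within 100 bases of the start, and their median position was -33. MCM2, MCM3, MCM6 and MCM7 had more than 1 match, and the 4 matches of MCM6 fell into 2 overlapping pairs, each written TTTGGCGCGAAA in the sequence above. Each MCM2-7 promoter in the table thus had at least 2 matches. The promoters of MCM10 and ORC4, at opposite ends of the printed range, held none of these exact forms. Stretches that differ from a form by 1 letter were not counted, such as tttggcgg in the MCM10 and CDC6 promoters printed above. A promoter without a match may therefore still hold a related E2F site.

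The CCAAT box, bound by NF-Y, occurred in 25 of the 45 promoters, or 55.6%, against 35.7% of all promoters and 36.3% of those of detected genes. The cell cycle homology region, known from genes expressed in G2 and mitosis, occurred in 1, that of DBF4, which is 2.22% against 15.4% of all promoters and 9.90% of those of detected genes. With any of the starts listed for a gene allowed, which concerned 10 members, the share with an E2F form was 46.7% against 3.99% of all genes. The median GC content was 65.7% in the promoters of the members and 65.3% in those of detected genes. A match describes these letters in this window only.

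The arrays also differed in markers of the cells. Of 10 epithelial and A549 markers 9 were detected, and 8 of these were higher in A549-ZNF300, 5 at least 2-fold. Among all detected genes 46.6% were higher and 13.6% at least 2-fold higher. The summed linear signal of the 9 markers was 111054 in A549-LV5 and 207172 in A549-ZNF300. KRT19, a keratin named here after its values were seen, had 2.29 in A549-LV5, below the array median, and 11.08 in A549-ZNF300. It passed detection only through A549-ZNF300, so the filter fixed its direction in these counts. Of 6 fibroblast markers 3 were below the median in both arrays, and the sum over the 3 detected ones was 245 and 1553. COL3A1 and LUM passed detection only through A549-ZNF300, where both had 6.30, so the filter fixed their direction, and COL1A1 had 7.90 and 10.45, a ratio of 2.55, with another probe set at 0.40. Of 5 leukocyte markers 2 were below the median in both arrays, and the sum over the 3 detected ones was 415 and 517. Of 4 endothelial markers 3 were below it, and the only detected one, PECAM1, had linear signals of 109 and 132. COL1A1, COL3A1, LUM and the genes named next were likewise chosen after their values were seen. CDKN2A and CDKN2B, which the A549 line is known to lack, were below the median in both arrays, whereas MTAP, known to be lost with them, had 8.70 and 9.51, with ratios of 0.81 and -0.32 by its probe sets. A signal above the array median is not by itself a sign of presence, since CDC45 at 7.61 in A549-LV5 was called absent. The MTAP signals therefore do not decide whether the gene is present. KRT19 sets the arrays apart, and whether both RNAs came from A549 cells was not tested. The part of these differences in the ratios of the replication genes was not tested. The 9 spiked hybridisation controls had ratios between -0.16 and 0.03, and the ratio of 3′ to 5′ signal was 1.01 in A549-LV5 and 0.99 in A549-ZNF300 for GAPDH, and 1.98 and 1.62 for ACTB.

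As a group the replication genes were higher in A549-ZNF300. Of the 52, 47 had the higher signal in A549-ZNF300, or 90.4%, where 46.6% of all detected genes did. At least 2-fold higher were 29 of the 52, or 55.8%, against 13.6% of all detected genes, and none was at least 2-fold lower, against 15.4%. The median log2 ratio was 1.04, with quartiles of 0.66 and 1.48, whereas all detected genes had a median of -0.06 and quartiles of -0.63 and 0.50. The ratio exceeded the upper quartile of all genes for 41 members. It was lowest for ORC4, at -0.73. MCM10, MCM4, RFC3 and CDC6 were at least 4-fold higher and had signals called present in both arrays, and GINS4 had the highest ratio, 2.78, from a signal called absent in A549-LV5. The 18 genes with an E2F form in the promoter had a median log2 ratio of 1.08, and 11 of them were at least 2-fold higher. The 27 without any of the exact forms searched had a median of 0.94, and 13 were at least 2-fold higher. In RNA from a whole culture, a larger share of cells in S phase and more RNA per such cell cannot be told apart. From its expression profiles of these cells, the paper reports that most cyclin, cyclin-dependent kinase, checkpoint and cell division genes were higher with ZNF300. The paper reports, from other assays, that cells overexpressing ZNF300 proliferated more slowly than vector controls and showed arrest at G2. How those measurements relate to the ratios here was not tested.

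**Figure D1:**
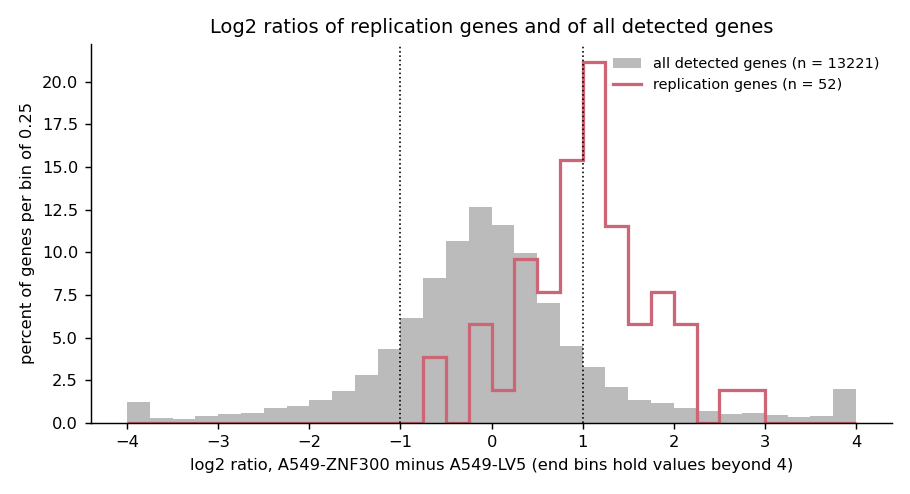
Log2 ratios of A549-ZNF300 over A549-LV5 on the x axis, with the percent of genes per bin of 0.25 on the y axis, for the 52 replication genes (red line) and all 13221 detected genes (grey bars); dotted lines mark 2-fold. The replication genes centre on 1.04 and all detected genes on -0.06, and no replication gene lies beyond 2-fold lower.

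The 2-fold line cut through the middle of the list: 10 members had a ratio within 0.1 of it, so the count past it moves with small shifts of scale. Centring the arrays on housekeeping genes, whose median ratio was 0.15, moved the median of all genes to -0.22 and that of the members to 0.89, with 20 members past 2-fold against 11.5% of all genes. With the arrays centred on their own medians the member median was 1.15. All used probe sets of the 52 genes had signals above the median of their array in both conditions, with GINS4 in A549-LV5 the closest to it, at 6.19 against 6.14. Detection calls were deposited for the used probe sets of the 29 members past 2-fold, and for none of the 23 others. A dim probe set of RFC3 with a ratio of 3.87 had no call either. Every probe set of the members with a call had a ratio of at least 2-fold in either direction, and none under 2-fold had one. Calls were thus at hand only for probe sets that differed between the arrays. What further rule picked them was not examined, so the share called present is no independent sign of detection. In A549-ZNF300 all 29 were called present, and in A549-LV5 26 were present, CHAF1B was marginal, and CDC45 and GINS4 were absent. Without these 2 genes the median of the members was 1.03 and 27 of 50 were past 2-fold.

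**Figure D2:**
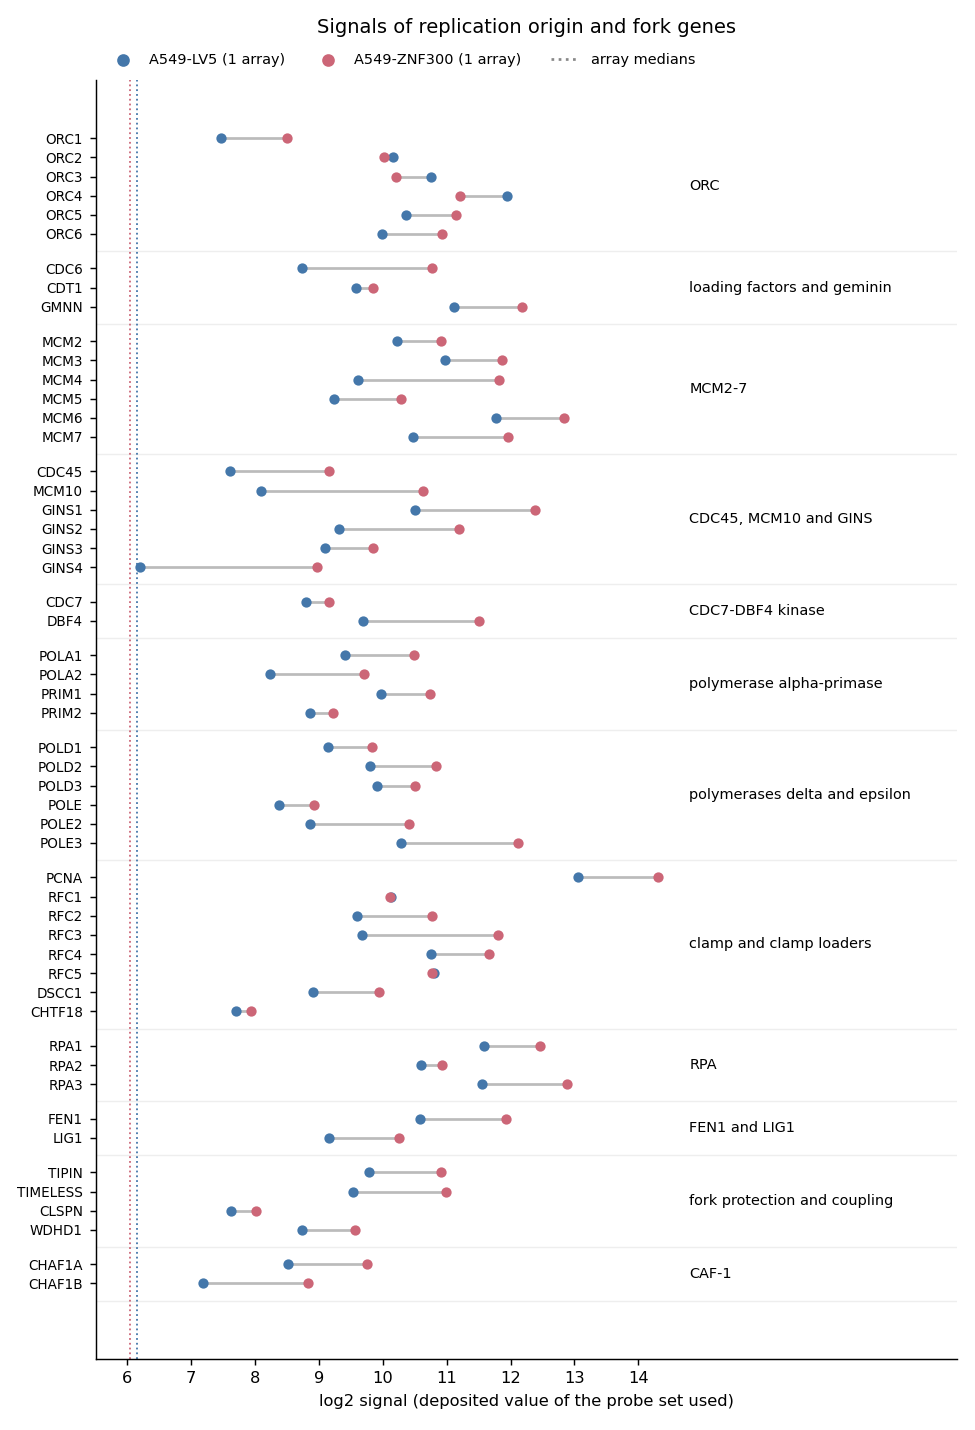
Log2 signal of each replication gene (x axis) in A549-LV5 (blue, 1 array) and A549-ZNF300 (red, 1 array), with genes grouped by complex on the y axis and dotted lines at the 2 array medians. Red lies to the right of blue for 47 of 52 genes; ORC2, ORC3 and ORC4 show the reverse, and RFC1 and RFC5 nearly coincide.

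Origin licensing opened with the most divided complex. Of the 6 ORC genes, which encode the complex that marks origins, 3 were higher and 3 lower in A549-ZNF300, with a median log2 ratio of 0.32. ORC1, the subunit whose level cycles in human cells, went from 7.46 in A549-LV5 to 8.50 in A549-ZNF300, a ratio of 1.04. ORC6, which joins the complex more loosely, went from 9.98 to 10.93, a ratio of 0.94, and ORC5 from 10.37 to 11.15, a ratio of 0.78. These 3 were the higher ones. ORC4 went from 11.95 to 11.21, a ratio of -0.73, ORC3 from 10.75 to 10.20, a ratio of -0.54, and ORC2 from 10.16 to 10.03, a ratio of -0.14. ORC2 to ORC5 form the stable core of the complex in human cells, and 3 of these 4 genes were lower, with a median of -0.34. Of all 13221 detected genes 7054 were lower, so a lower sign is common. The ratios of ORC2 and ORC3 lay above the lower quartile of all detected genes, -0.63, and that of ORC4 below it. The second detected probe sets of ORC2 and ORC4 were lower too, by ratios of -0.94 and -0.20. A further probe set of ORC5 had a ratio of 1.05, and another had one of 3.997 that rested on a signal of 2.10 in A549-LV5, below the array median.

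The factors that bring the helicase to ORC were all higher by their brightest probe set, though not equally. CDC6, the ATPase that joins ORC to load the helicase, had signals of 8.73 and 10.77, a ratio of 2.03 or 4.09-fold, and its other probe set gave 1.65. GMNN encodes geminin, the inhibitor that holds CDT1 after S phase has begun, and had signals of 11.11 and 12.19, a ratio of 1.08. CDT1, which carries the helicase to the origin, had 9.58 and 9.84, a ratio of 0.26. Its other probe set went the opposite way, from 9.19 to 8.15, a ratio of -1.04, so the arrays gave no single direction for CDT1. The inhibitor and CDC6 were thus at least 2-fold higher, and CDT1 was not.

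All 6 genes of the MCM2-7 ring, the motor of the replicative helicase, were higher, and 4 reached 2-fold. Their median was 1.05. MCM4 stood out, with 9.61 in A549-LV5 and 11.83 in A549-ZNF300, a ratio of 2.22 or 4.65-fold. All 4 of its detected probe sets agreed, with ratios between 1.97 and 2.52. MCM7 followed with 10.47 and 11.96, a ratio of 1.48, and its other probe set gave 1.36. MCM6 went from 11.77 to 12.83, a ratio of 1.06, and MCM5 from 9.23 to 10.28, a ratio of 1.05. MCM3 went from 10.97 to 11.86, a ratio of 0.89, and MCM2 from 10.22 to 10.91, a ratio of 0.70. The ring contains each subunit once, and the ratios of its genes spread from 0.70 to 2.22. A dimmer probe set of MCM6 gave 0.22, and a second one of MCM5 gave 1.37.

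Initiation had the highest median of the 3 stages. Its 8 genes were all higher and 6 reached 2-fold, and their median was 1.85, against 0.94 for licensing and 1.03 for elongation. It was 1.85 also without GINS4 and CDC45, and with 1 array per condition the order of the stages has no error. GINS4, a subunit of the GINS complex that couples helicase and polymerase, had 6.19 in A549-LV5, just above the array median of 6.14 and called absent, and 8.98 in A549-ZNF300, a ratio of 2.78. MCM10, which helps to fire the assembled helicase, had 8.09 and 10.62, a ratio of 2.54 or 5.80-fold, and its other probe sets gave 2.59 and 2.10. The second detected probe set of GINS4 gave 2.05 from 6.01 in A549-LV5, which was below the array median and called absent too, so the size of the GINS4 difference is not measured on both sides. That of MCM10 is, since each of its detected probe sets lay above the median in both arrays.

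The other GINS genes were higher as well by the probe sets used. GINS1 had 10.50 and 12.39, a ratio of 1.89, GINS2 had 9.32 and 11.19, a ratio of 1.87, and GINS3 had 9.09 and 9.85, a ratio of 0.76. GINS2 is the exception to agreement between probes: another detected probe set, far dimmer, went from 6.53 to 4.54, a ratio of -1.99, and ended below the array median. CDC45, the helicase partner that completes the active enzyme, had 7.61, called absent, and 9.16, a ratio of 1.55. Of the kinase that triggers firing, the regulatory subunit DBF4 had 9.68 and 11.51, a ratio of 1.82, and the catalytic subunit CDC7 had 8.80 and 9.15, a ratio of 0.35. The regulatory subunit, whose protein cycles, was thus at least 2-fold higher and the catalytic one was not.

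**Figure D3:**
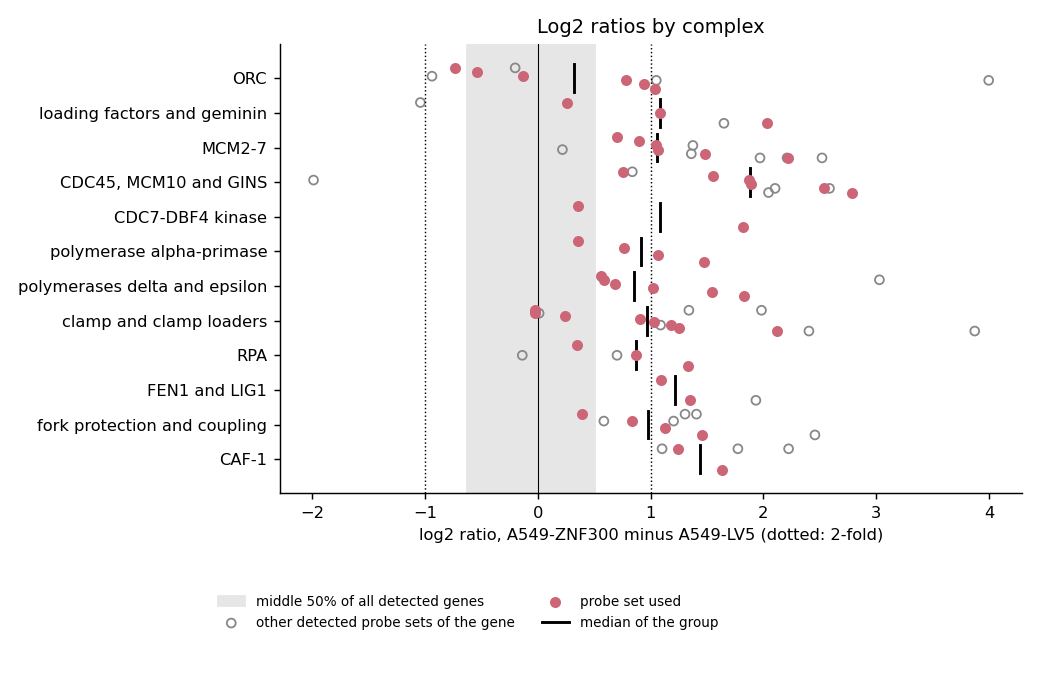
Log2 ratio of each replication gene (x axis) by complex (y axis), with filled points for the probe set used, open points for the other detected probe sets of the same gene, a bar at the median of the complex and a grey band for the middle 50% of all detected genes. The median of CDC45, MCM10 and GINS is 1.88 and that of ORC is 0.32, the only one inside the grey band.

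At the fork, 27 of 29 genes were higher and 16 at least 2-fold. Polymerase alpha and primase lay the RNA-DNA primers from which each strand grows. The catalytic POLA1 had 9.41 and 10.48, a ratio of 1.07, and its partner POLA2 had 8.24 and 9.71, a ratio of 1.47. The primase genes differed less: PRIM1 had 9.97 and 10.73, a ratio of 0.76, and PRIM2 had 8.86 and 9.22, a ratio of 0.35.

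Of the polymerases that copy the strands, each of the 6 genes on the list was higher, and of their small subunits outside it POLE4 had a ratio of 1.49 and POLD4 one of -0.19. POLE encodes the catalytic subunit of the leading strand polymerase epsilon and had 8.37 and 8.92, a ratio of 0.56. Its accessory subunits had larger ratios: POLE2 had 8.86 and 10.41, a ratio of 1.54, and POLE3, a histone-fold subunit, had 10.29 and 12.11, a ratio of 1.83. Among the genes of polymerase delta, which makes the lagging strand, the catalytic POLD1 had 9.14 and 9.82, a ratio of 0.69. POLD2 had 9.81 and 10.83, a ratio of 1.02, and POLD3 had 9.91 and 10.50, a ratio of 0.59. In both polymerases the catalytic gene stayed under 2-fold. A dim probe set of POLD3 gave 3.03, from 3.48 to 6.51, and passed detection only through A549-ZNF300, so the filter fixed its direction.

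PCNA, the clamp that tethers polymerases to DNA, had 13.06 in A549-LV5 and 14.31 in A549-ZNF300, a ratio of 1.25. The clamp is opened by the RFC complex. RFC3 had 9.68 and 11.80, a ratio of 2.12 or 4.34-fold, and another bright probe set gave 2.40. RFC2 had 9.60 and 10.77, a ratio of 1.18, and RFC4 had 10.76 and 11.66, a ratio of 0.90. The large subunit RFC1 had 10.13 and 10.11, a ratio of -0.02, and its other detected probe set gave 0.01. RFC5 had 10.80 and 10.77 by the probe set used, a ratio of -0.03. Its other probe sets read 9.52 and 11.51, a ratio of 1.98, and 8.70 and 10.04, a ratio of 1.34. RFC5 was therefore listed among the 5 lower genes by a ratio near 0 on 1 of 3 probe sets, and both RFC1 and RFC5 turned to ratios just above 0 after median centring or quantile normalisation of the arrays. DSCC1 and CHTF18 belong to an alternative loader, in which CHTF18 replaces RFC1. DSCC1 had 8.91 and 9.94, a ratio of 1.03, and CHTF18 had 7.69 and 7.94, a ratio of 0.24.

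RPA covers single-stranded DNA at the fork. Its smallest subunit, RPA3, had 11.55 and 12.88, a ratio of 1.33, RPA1 had 11.58 and 12.46, a ratio of 0.87, and RPA2 had 10.59 and 10.93, a ratio of 0.34. A second probe set of RPA1 gave 0.70 and a dimmer one gave -0.14. The enzymes that finish lagging strand fragments were both at least 2-fold higher. FEN1, the flap nuclease, had 10.59 and 11.93, a ratio of 1.35, and LIG1, the ligase, had 9.16 and 10.25, a ratio of 1.09. The other probe set of FEN1 gave 1.93.

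Genes that hold the fork together were all higher by the probe sets used. TIMELESS had 9.53 and 10.98, a ratio of 1.45, and its partner TIPIN had 9.79 and 10.91, a ratio of 1.13. CLSPN encodes claspin, which works with this pair and links the fork to checkpoint kinase, and had 7.62 and 8.01, a ratio of 0.39. Dimmer probe sets of CLSPN gave 1.30 and 1.41, but they passed detection only through A549-ZNF300, so the filter fixed their direction. A further CLSPN probe set, below the median in both arrays, gave 0.16. WDHD1, which joins helicase and polymerase alpha, had 8.73 and 9.57, a ratio of 0.83. The CAF-1 chaperone, which deposits histones behind the fork, was at least 2-fold higher in both genes measured. CHAF1A had 8.52 and 9.76, a ratio of 1.24, and its other detected probe sets gave 1.10, 1.77 and 2.22. The last of these passed detection only through A549-ZNF300. CHAF1B had 7.19, called marginal, and 8.82, a ratio of 1.63 or 3.10-fold.

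The remaining probe sets gave a check on these values within the same RNA. The 52 genes have 96 probe sets, of which 87 were detected, and 24 genes have at least 2 detected ones. Of the 35 detected probe sets not used, 29 had the sign of the one used. Of the 26 with signals at or above the median of both arrays, 21 did, and 22 were higher in A549-ZNF300. The sign differed between the detected probe sets of 5 genes, CDT1, GINS2, RFC1, RFC5 and RPA1. Probe sets of a member had a median SD of 0.52, above the 0.35 of all genes. With the median over detected probe sets in place of the brightest one, the member median was 1.07 and 46 were higher. The detected probe sets include 8 below the array median in A549-LV5, whose direction the filter fixed as higher. For the dimmer probe set of GINS2 it was fixed as lower.

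Because signals of whole chromosomes differed between the 2 arrays, each gene was also set against its own chromosome, named from the RefSeq annotation of GRCh38.p14. The chromosomes with members had median log2 ratios of all their detected genes between -0.52 and 0.34. The lowest was chromosome 6, where 26.6% of 708 genes were higher in A549-ZNF300. The 4 members there, ORC3, GMNN, MCM3 and PRIM2, had a median of 0.62, and the 48 members elsewhere had one of 1.05. On chromosome 7, which had a median of 0.24 and 62.3% of genes higher, the 6 members ORC5, MCM7, DBF4, POLD2, RFC2 and RPA3 had a median of 1.26. Against the median of their chromosome 48 members were higher, ORC2, ORC3 and ORC4 were lower, and RFC1 was itself the median of chromosome 4. By definition, as many detected genes of a chromosome lie above its median as below it. The median excess was 1.09, and 28 members exceeded their chromosome by at least 2-fold, against 14.1% of all detected genes. ORC3, at -0.54 on a chromosome with a median of -0.52, differed little from its neighbours, while ORC2 and ORC4 lay on chromosome 2, whose median was -0.02.

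**Figure D4:**
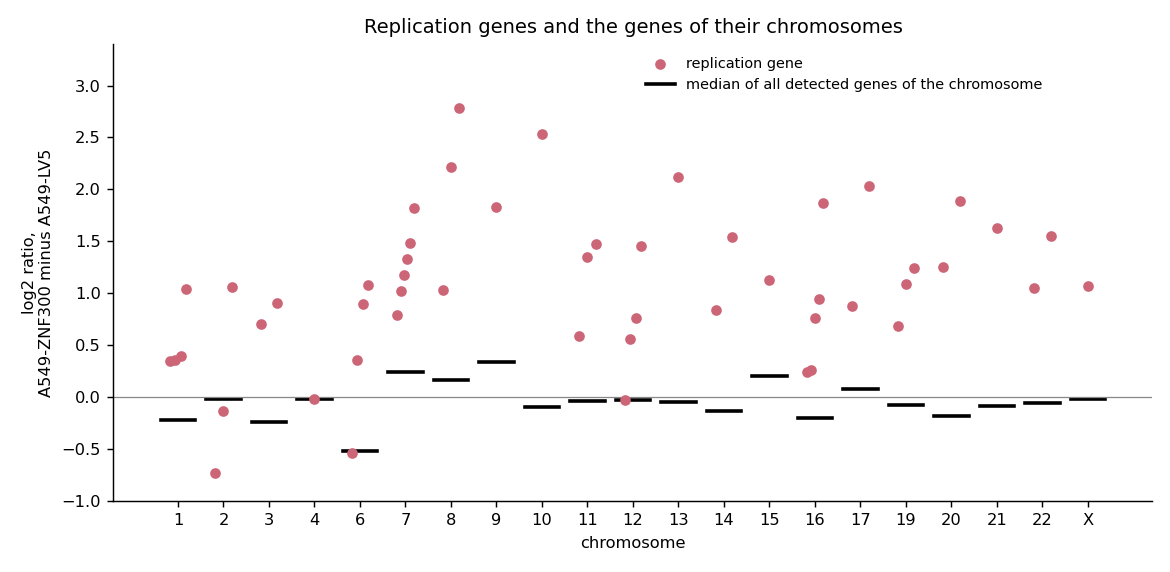
Log2 ratio of each replication gene (red points, y axis) by chromosome (x axis), with a black bar at the median of all detected genes of that chromosome. Points lie above the bar for 48 of 52 genes, also on chromosome 6 with its median of -0.52.

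Other genes of DNA synthesis were taken from lists of known factors. Of 27 detected replisome genes outside the list, 21 were higher, with a median of 0.55. At least 2-fold higher were 5, or 18.5%, against 13.6% of all detected genes. The largest ratios were those of TOP2A, the topoisomerase that untangles replicated DNA, with 11.33 and 13.74, a ratio of 2.41, of POLE4, a small subunit of polymerase epsilon, at 1.49, and of ASF1B, a histone chaperone, at 1.48. The lowest were RIF1, which restrains origin firing, at -0.49, MTBP, which takes part in firing, at -0.43, and POLD4, a small subunit of polymerase delta, at -0.19. Detected probe sets of RIF1 ran from -0.93 to 0.04. The sign also differed between probe sets of MCMBP, with -0.10 and 0.28, and TOP1, with -0.06 and 0.59.

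Regulators of S phase entry were mostly higher too. Of 13 such genes 11 were higher, 7 at least 2-fold, with a median of 1.03. Of all detected genes 46.6% were higher and 13.6% at least 2-fold higher. CCNA2, cyclin A of S phase, had 9.47 and 11.42, a ratio of 1.95. CDC25A, the phosphatase that activates cyclin-dependent kinase, had 4.61 and 6.20, a ratio of 1.59. Its A549-LV5 signal was below the array median, so it passed detection only through A549-ZNF300 and the filter fixed its direction in these counts. E2F1 had 6.51 and 7.80, a ratio of 1.28. The 2 lower genes were E2F3 at -0.29, on chromosome 6, and RB1, the restraint on E2F factors, at -0.19. The paper reports by Western blot that E2F3 protein did not differ significantly with the level of ZNF300. Of 9 detected genes of nucleotide supply 8 were higher, 4 at least 2-fold, with a median of 0.97, beside the same shares of all detected genes. DTYMK, a thymidylate kinase, had a ratio of 1.89 with probe sets from -1.06 to 2.28, TK1, the thymidine kinase of S phase, had 1.58, and RRM2, the cycling subunit of ribonucleotide reductase, had 1.42. RRM2B, its p53-controlled counterpart, had -0.39, and CAD, the first enzyme of pyrimidine synthesis, had 0.21 and -0.48 by its probe sets.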

How the data were processed

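Total RNA of each condition, A549-LV5 and A549-ZNF300, was hybridised to 1 Affymetrix U133 Plus 2.0 array. The log2 signals deposited by the authors cover 54675 probe sets and were already normalized. The submitters' processing notes name MAS5 and affy without versions, and the study's methods name SCAN/UPC; which of them made the values is not stated in the sources used here. A second table deposited by the authors held identical signals for 8187 probe sets, detection calls, and the authors' own fold and direction columns, which were not used.

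Genes came from the array annotation: 41097 probe sets named 1 gene and were used, 1801 named several and 11777 none. Detection required a signal not below the array median in 1 or both arrays, which 30369 probe sets met, and each of the resulting 13221 genes was represented by its brightest detected probe set. The log2 ratio was A549-ZNF300 minus A549-LV5. With 1 array per condition no test was run and no p-value exists, and counts used a 2-fold threshold; the number of arrays limits the precision. Every member was named, ZNF300, and of each other list up to 3 genes with the largest ratios above 0, up to 3 with the lowest below 0 and those whose probe sets differed in sign. The members, lists and rules were chosen with earlier results of these data known. Promoters are RefSeq sequences of GRCh38.p14, which is not an array build. A planned search of protein sequences for a PCNA-binding motif was not run. Alternatives changed the scaling, the filter, the probe set and the threshold. Calculations were tested on simulated data and used Python 3.11.15, pandas 2.3.3 and numpy 2.4.6, and matplotlib 3.10.9 for figures.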

Additional observations from a re-analysis of the deposited data

How the results depend on the processing

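The number of arrays, 1 per condition, limits every value, and no ratio has a replicate error. No paired analysis was possible because each condition has 1 array and no value comes from a test. A median or ratio was taken as moved when it changed by more than 0.35, the median SD between probe sets of a gene, and a count when it changed by over 1.5 times. Medians and counts of the replication genes and their groups stayed within these margins in 114 of 124 recalculations. The ratios of single genes did so in 495 of 527. The cause of the moves was not tested. Many of these outcomes were fixed beforehand, so the tallies do not measure how firm the values are. Every used probe set lay above both array medians, so changing the filter or raising dim signals left each retained member's ratio unchanged. Either centring of the arrays shifted all ratios by the same amount, smaller than 0.35.

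By the second brightest probe set, which 24 members have, 20 were higher, 15 of them past 2-fold, and 2 were past 2-fold lower. The initiation median was 1.44 and that of the other replisome genes 1.05. Some of these probe sets, as for CLSPN, POLD3 and TIMELESS, passed detection only through A549-ZNF300, and that of GINS2 only through A549-LV5. Without probe sets ending in _x_at or _s_at, which left 38 members, 1 was at least 2-fold lower, against 16.4% of all genes. The initiation median was 1.32. GINS2 turned to -0.0586 as the median over its probe sets, to -1.99 by the second brightest and to -1.99 without those endings. CDT1 turned to -0.39 and -1.04 under the first and second of these, and RFC5 to 1.34 and 1.98, while RFC1, near 0 throughout, also changed sign. A threshold of 1.5-fold counted 1 member lower, and one of 3-fold counted 10 higher. The shares of all genes at these thresholds are not given here, so these counts have no background. Taken against the median of chromosome 6, the members there had a median of 1.15; this alternative, and leaving out members called absent in A549-LV5, were chosen after seeing the data. The median of all genes was -0.06 as deposited, 0.04 with the arrays centred on their medians and -0.22 when centred on housekeeping genes.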
